A study of Mus musculus with 36 samples.

Results

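The comparison was between Bmal1 knockout and wild-type mouse liver at Zeitgeber time 8 (ZT8), which is 8 h after lights on. It used the 6 libraries of that time out of 36, and all 13201 genes that passed a filter on low counts out of 21654 in the count table. The series followed liver mRNA every 4 h over 6 times of day, with 3 mice per genotype and time. All mice were C57BL/6, housed in a cycle of 12 h light and 12 h dark, and food was always available. The wild types at ZT8 were a 13.9-week-old female (replicate 1), a 13.9-week-old male (replicate 2) and an 8-week-old male (replicate 3). The knockouts were a 13.9-week-old male (replicate 1), an 8-week-old male (replicate 2) and a 13.9-week-old female (replicate 3). Sex and age were thus the same in both genotypes, and the 6 mice came from 6 cages. The labels describe the knockout as prenatal and also write it as cKO. They name no Cre line or deleted exon, so which cells lost the gene is not known here.

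Bmal1, listed under its gene symbol Arntl, encodes the transcription factor that pairs with CLOCK or NPAS2 and binds E-box sequences. Among its targets are its own repressors, the Period and Cryptochrome genes, and the nuclear receptors REV-ERBα (Nr1d1) and REV-ERBβ (Nr1d2). The REV-ERB proteins in turn repress Arntl, Clock, Npas2, Cry1 and Nfil3, and compete at the same elements with the ROR receptors. E-boxes also drive the PAR bZIP activators DBP, TEF and HLF, which bind D-boxes together with the repressor NFIL3 and act on many genes of liver metabolism. The comparison asks what the loss of Bmal1 does to liver expression in the late light phase.

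The deposited reads per gene are given as CPM, the usual per-library scaling of counts, here on TMM-scaled totals that adjust for composition, in the order replicate 1, 2 and 3. Total counts at ZT8 ran from 12676300 to 12765593 per library, and from 12657858 to 12839653 over the series. Between replicates of ZT8, counts varied 14.1 to 75.9 times as much as counting error alone would give. Pairs of a female and a male are part of this range, at 44.2 to 75.9. The pair of males had 14.1 in the wild type and 38.8 in the knockout. Differences are log2 fold changes of knockout over wild type ± standard error. A gene is called where the Benjamini-Hochberg adjusted p of edgeR's quasi-likelihood test, over all 13201 genes, is under 0.05. That fit used all 36 libraries with labelled sex as a covariate, so the ZT8 groups share their estimate of spread with the other 10 groups. The libraries of ZT16 and ZT20 stood apart from the rest, and 1 wild-type library of ZT16 went against its sex label. At ZT8 the labels matched: Xist had 7907 and 8604 reads in the females and 1 to 25 in the males, and the Y-linked Ddx3y had 0 reads in the females and 950 to 1034 in the males. Nothing in the labels shows whether the mice of a group shared a litter, so the tests measure the spread between these animals.

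At ZT8, 1130 of 13201 genes differed between the genotypes (8.56%), 609 higher in the knockout (4.61%) and 521 lower (3.95%). Clock genes changed strongly: Npas2, Arntl, Cry1, Clock and Nfil3 rose, and Dbp, Nr1d1, Nr1d2, Per3, Gm129, Bhlhe41, Usp2 and Tef fell. Outside the clock, the choline kinase Chka, the lipoprotein lipase gene Lpl, the glycogen-targeting subunits Ppp1r3b and Ppp1r3c and the SREBP-retaining protein Insig2 rose. The glycogen synthase Gys2, the uridine phosphorylase Upp2, the cytochrome Cyp2a5 and its redox partner Por fell. Among the called genes, 343 were at least 2-fold higher and 338 at least 2-fold lower. Of the 1130 called genes, 1124 had 1 sign in all 3 pairs of mice matched in sex and age. The calls came from these same mice, so this agreement of sign is no separate evidence. Over all genes tested, the 3 knockout libraries did not overlap the 3 wild-type libraries for 4199 genes (31.8%), and that held for 1094 of the 1130 called genes. The median log2 fold change of all tested genes was 0.01.

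The number of calls depended on single libraries and on the time points in the fit. It was 609 higher and 521 lower with all libraries, 384 and 272 without knockout replicate 3, 394 higher without wild-type replicate 2, 399 higher without wild-type replicate 3, 312 lower without knockout replicate 1, and 1138 and 1020 with the ZT16 and ZT20 libraries left out. Of the 1130 genes, 493 stayed called whichever of the 6 ZT8 libraries was left out, 289 higher and 204 lower. In the text below, a called gene was among these 493 unless a library is named for it. Counts of called members of a gene list stand beside 8.56% called over all genes, 4.61% higher and 3.95% lower. A count near that share is no result about the list.

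**Figure D1:**
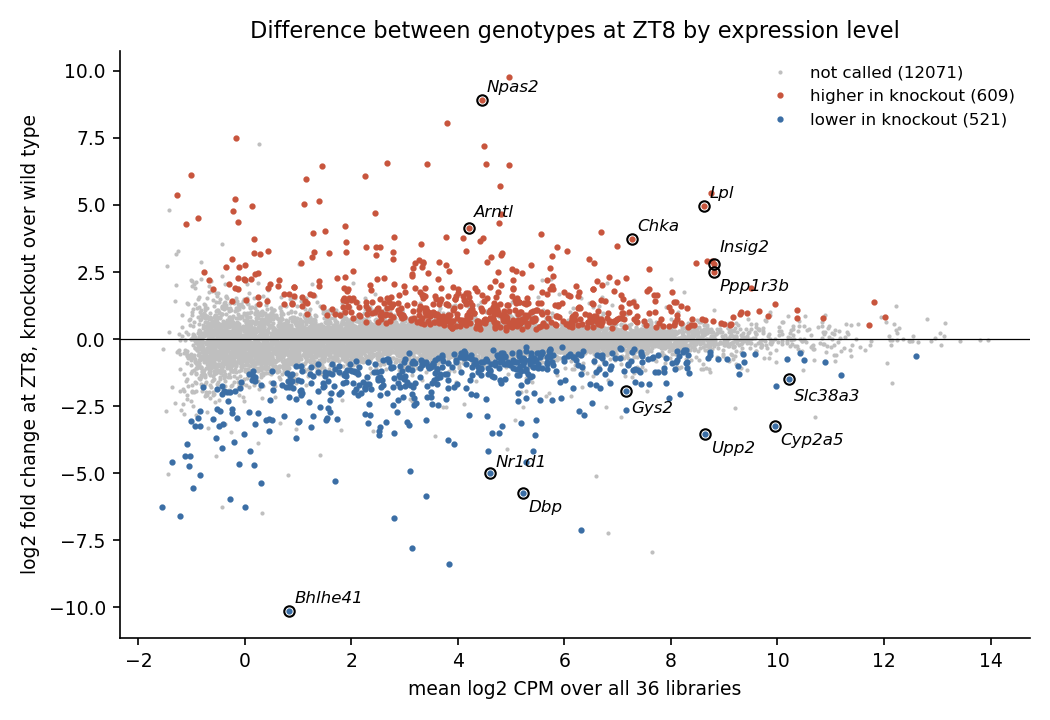
Each point is 1 of the 13201 tested genes, with the mean log2 CPM over all 36 libraries on the x axis and the log2 fold change at ZT8, knockout over wild type, on the y axis. The 609 genes called higher are red, the 521 called lower are blue, and circles mark a few of the named genes, such as Npas2 at 8.92 and Bhlhe41, whose knockout libraries hold no read.

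Promoters of the clock genes are shown first, since many of these genes changed and their regulators are known to act through short DNA elements. RefSeq windows of 300 bases, 250 before and 50 from the transcript start, were found on GRCm38.p6 for the 13 called clock genes named above, Gm129 under its RefSeq symbol Ciart. Both strands were searched for the E-box CACGTG, for TAGGTCA, the core of the element shared by ROR and REV-ERB, and for the D-box TTATGTAA. No searched motif overlapped another in these windows. An E-box occurred in windows of 4 of the 13 genes, the ROR and REV-ERB core in 2 and the D-box in 1. Over all 32851 mouse windows, 7.15% held the E-box, 2.61% the core and 0.938% the D-box. These shares are per window, whereas a gene was counted where any of its windows held the motif, so the measures are unlike. A match of letters is a description of the window and not a binding site. For 6 of these genes, a window with a match is printed 5′ to 3′ on the gene's strand, with the matched letters in capitals. Arntl (second of its windows, chr7:113207261-113207560, plus strand) holds the core downstream of the start, and Nfil3 (chr13:52980990-52981289, minus strand) holds it in reverse just before the start. Cry1 (chr10:85185005-85185304, minus strand), Gm129 (chr3:95882179-95882478, minus strand) and Tef (second window, chr15:81811164-81811463, plus strand) hold the E-box, Gm129 at 3 places. Per3 (chr4:151044616-151044915, minus strand) holds the D-box at 2 places.
Arntl: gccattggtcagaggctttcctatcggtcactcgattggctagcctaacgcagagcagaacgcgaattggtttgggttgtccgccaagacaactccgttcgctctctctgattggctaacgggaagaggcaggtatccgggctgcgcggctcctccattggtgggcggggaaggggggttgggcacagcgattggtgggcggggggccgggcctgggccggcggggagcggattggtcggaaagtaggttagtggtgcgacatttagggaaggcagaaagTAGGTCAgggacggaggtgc
Nfil3: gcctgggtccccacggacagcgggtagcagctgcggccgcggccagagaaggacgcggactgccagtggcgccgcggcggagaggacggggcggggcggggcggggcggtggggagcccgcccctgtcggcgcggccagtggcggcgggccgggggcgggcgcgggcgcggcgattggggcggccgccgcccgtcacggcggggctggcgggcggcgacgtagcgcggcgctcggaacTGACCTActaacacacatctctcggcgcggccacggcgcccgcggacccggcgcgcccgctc
Cry1: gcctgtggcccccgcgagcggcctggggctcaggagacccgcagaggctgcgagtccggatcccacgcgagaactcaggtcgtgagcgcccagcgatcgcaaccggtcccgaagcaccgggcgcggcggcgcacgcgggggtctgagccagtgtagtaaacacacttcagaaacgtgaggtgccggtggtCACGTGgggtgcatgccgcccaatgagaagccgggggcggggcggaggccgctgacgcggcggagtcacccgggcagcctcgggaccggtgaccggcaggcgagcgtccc
Gm129: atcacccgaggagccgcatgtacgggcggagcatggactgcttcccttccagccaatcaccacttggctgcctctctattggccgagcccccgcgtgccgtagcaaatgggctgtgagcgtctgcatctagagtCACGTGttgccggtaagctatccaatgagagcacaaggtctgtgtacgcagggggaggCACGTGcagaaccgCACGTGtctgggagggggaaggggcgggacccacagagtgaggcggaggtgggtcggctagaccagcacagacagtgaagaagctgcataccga
Tef: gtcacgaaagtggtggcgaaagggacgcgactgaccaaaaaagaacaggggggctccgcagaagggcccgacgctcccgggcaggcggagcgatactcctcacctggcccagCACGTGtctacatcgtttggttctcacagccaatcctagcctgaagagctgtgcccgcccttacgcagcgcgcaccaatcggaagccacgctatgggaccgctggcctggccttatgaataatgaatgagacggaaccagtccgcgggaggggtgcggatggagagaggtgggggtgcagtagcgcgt
Per3: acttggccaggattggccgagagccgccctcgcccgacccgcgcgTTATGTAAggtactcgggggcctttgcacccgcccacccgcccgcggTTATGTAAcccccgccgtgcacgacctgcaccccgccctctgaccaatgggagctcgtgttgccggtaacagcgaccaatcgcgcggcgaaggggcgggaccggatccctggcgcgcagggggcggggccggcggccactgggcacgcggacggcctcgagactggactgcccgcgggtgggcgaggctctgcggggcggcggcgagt
The genes with the core rose in the knockout, those with the E-box were Cry1, which rose, and Gm129, Tef and Bhlhe41, which fell, and the 1 with the D-box fell.

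The targeted gene was counted at a higher level in the knockout than in the wild type at this time of day. Arntl (ENSMUSG00000055116, chr7:120350979-120457636 on mm9) had 0.793, 0.944 and 1.25 CPM in the wild types and 20.1, 18.8 and 14.9 CPM in the knockouts. The groups did not overlap, with a log2 fold change of 4.15 ± 0.33 (adjusted p = 6.97e-10). The counts are per gene, so they do not show which exons were read and do not test the deletion. Wild-type Arntl was at its lowest group mean of the day at ZT8, and the knockout mean was between 16.7 and 19.7 CPM at each of the 6 times.

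Both partners of BMAL1 were higher in the knockout. Npas2 (chr1:39250576-39420079) had 1, 0 and 2 reads in the wild types and 30.7, 49.2 and 49.3 CPM in the knockouts. The ratio of summed reads, 1658 against 3 and scaled to the library totals, was 549.8, with a 95% interval of 187.8 to 2669 for counting error only (adjusted p = 9.83e-13). Npas2 was thus close to silent in wild-type liver at ZT8 and present in every knockout. Clock, the other partner, had 15.9, 21.5 and 18.6 CPM in the wild types and 57.4, 57.5 and 58.1 CPM in the knockouts, a change of 1.63 ± 0.32 (adjusted p = 0.000818). The ROR receptor gene Rora had 69.6, 70.8 and 67.1 CPM and 69.2, 79.1 and 76.5 CPM, with overlapping groups (0.12 ± 0.24, adjusted p = 0.861). The median log2 fold change of the clock activators was 1.63, against 0.01 over all genes.

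Repressors of the clock moved in both directions, 5 of 10 lower and 1 higher. Nr1d1, which encodes REV-ERBα, had 148, 81.1 and 65.7 CPM in the wild types and 4.3, 1.86 and 2.99 CPM in the knockouts (-5.00 ± 0.56, adjusted p = 3.21e-07). Nr1d2, which encodes REV-ERBβ, had 159.5, 141 and 132 CPM in the wild types and 7.47, 9.44 and 6.82 CPM in the knockouts (-4.17 ± 0.33, adjusted p = 6.97e-10). Each knockout was thus far below each wild type for both REV-ERB genes. Gm129, which encodes the repressor CHRONO, had 39.4, 58.4 and 31.8 CPM in the wild types and 0.244, 0.542 and 0.46 CPM in the knockouts (-6.67 ± 0.72, adjusted p = 1.92e-07). Bhlhe41, which encodes DEC2, had 9.76, 16.4 and 6.97 CPM in the wild types and no read in the knockouts. Against a floor of 3 reads over the group, it was at least 140.7-fold lower (adjusted p = 4.54e-08), whereas its homologue Bhlhe40 had 139, 138 and 89.7 CPM against 99, 87.1 and 86.3 CPM and was not called (-0.42 ± 0.38, adjusted p = 0.607).

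The Period and Cryptochrome genes did not share a direction. Per3 had 141, 95.1 and 89 CPM in the wild types and 8.93, 10.4 and 8.73 CPM in the knockouts (-3.50 ± 0.33, adjusted p = 1.3e-08). Cry1 had 10.1, 9.83 and 9.16 CPM in the wild types and 72.4, 96.9 and 78.3 CPM in the knockouts (3.09 ± 0.21, adjusted p = 4.84e-11). The groups lay clearly apart for both, Per3 below and Cry1 above the wild type. Per1 had 52, 58 and 54 CPM in the wild types and 16.9, 43 and 10.1 CPM in the knockouts, a spread wide enough that it was not called (-1.14 ± 0.67, adjusted p = 0.374). Per2 (-0.05 ± 0.41, adjusted p = 0.968) and Cry2 (0.05 ± 0.31, adjusted p = 0.958) had overlapping groups. The median of the 10 repressors was -2.32, and it is the same with Bhlhe41 placed at its bound.

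In the D-box branch, both called PAR bZIP activators fell and their antagonist rose. Dbp (ENSMUSG00000059824, chr7:52960458-52965525 on mm9) had 331, 234 and 184 CPM in the wild types and 3.65, 4.57 and 5.82 CPM in the knockouts, 53.1-fold lower (-5.73 ± 0.33, adjusted p = 9.83e-13). Tef had 471, 389.6 and 352 CPM in the wild types and 122, 154 and 122 CPM in the knockouts (-1.61 ± 0.18, adjusted p = 3.3e-07). Dbp was thus all but lost in the knockouts, while Tef kept a level above 100 CPM in each. Hlf, the third member, had 65.6, 68.4 and 59.4 CPM against 53.6, 66.1 and 51.7 CPM and was not called (-0.18 ± 0.20, adjusted p = 0.691). Nfil3, which represses at D-boxes, had 12, 9.91 and 10.6 CPM in the wild types and 48.1, 38.9 and 32.9 CPM in the knockouts (1.86 ± 0.32, adjusted p = 0.000217). Among 12 genes for clock protein stability, the deubiquitinase Usp2 alone was called, with 114, 75.7 and 78.8 CPM in the wild types and 8.77, 16.8 and 10.8 CPM in the knockouts (-2.85 ± 0.38, adjusted p = 6.77e-06). The kinase gene Csnk1d (0.38 ± 0.19, adjusted p = 0.273) was not called, and the median of the 12 was -0.02.

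**Figure D2:**
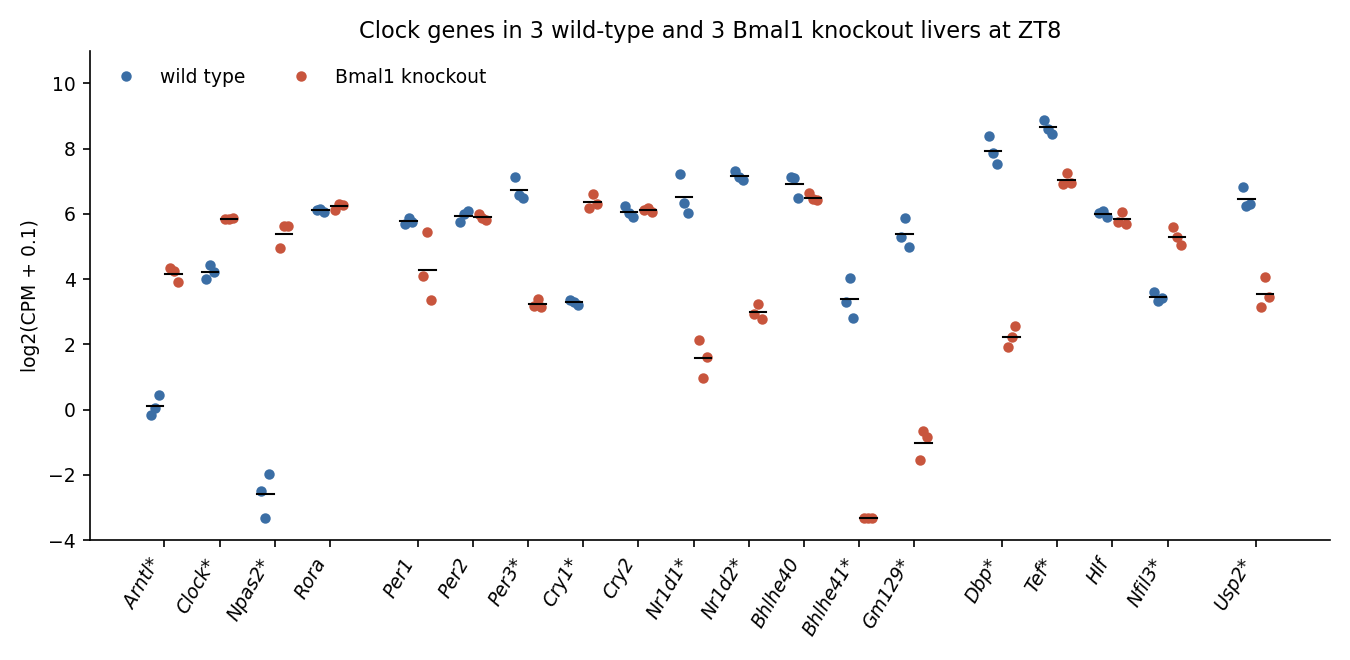
Each point is 1 liver at ZT8, with log2(CPM + 0.1) on the y axis, wild type in blue and Bmal1 knockout in red, for 19 clock genes; black bars are means of the 3 log values and an asterisk marks a called gene. The groups lie apart for Arntl, Npas2, Cry1 and Dbp, and they overlap for Rora, Per2, Cry2, Bhlhe40 and Hlf.

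Grouped by regulator, known E-box targets were more often called lower and REV-ERB-repressed genes more often called higher. These groups share members with the clock lists above and are no separate evidence. Of 16 E-box targets, 10 fell and 1 rose, with a median of -1.91. The 10 were Dbp, Nr1d1, Nr1d2, Per3, Gm129, Bhlhe41, Usp2, Tef, the NAD salvage enzyme Nampt and the mitotic kinase Wee1. Nampt had 131, 127 and 168 CPM in the wild types and 38.9, 41.9 and 42.1 CPM in the knockouts (-1.80 ± 0.26, adjusted p = 1.7e-05). Wee1 had 8.8, 9.68 and 6.66 CPM in the wild types and 2.35, 1.94 and 1.92 CPM in the knockouts (-2.01 ± 0.45, adjusted p = 0.00356). Of 9 REV-ERB-repressed genes, 6 rose and 1 fell, with a median of 1.63. The 1 that fell was Gys2, and the 2 that were not called also had negative values. They were the apolipoprotein gene Apoc3 (-0.01 ± 0.22, adjusted p = 0.994) and a gene at -4.35, the lowest value of the list. Of the 9, 8 had an unadjusted p under 0.05 in edgeR's test. The groups did not overlap for 8 of the 9, against 31.8% of all genes.

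Set against the wild-type day, the knockout at ZT8 lay outside the range of the 6 wild-type group means for most called genes. Among the 609 higher genes, the knockout mean was above that range for 440 and within it for 169. Among the 521 lower genes, it was below the range for 351 and within it for 170. Npas2, Cry1 and Chka were above the range, and Nr1d2 and Bhlhe41 below it. Arntl, Clock, Nfil3, Insig2, Agpat2 and Ppp1r3b were within it, as were Dbp, Tef, Per3, Nr1d1 and Usp2. For genes within the range, these knockout levels at ZT8 are ones that wild-type liver also passed through at other times.

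For some genes the genotype difference at ZT8 departed from the mean difference of the other 5 times, and 96 of 13201 genes were called in that test (0.727%), 69 with a more positive and 27 with a more negative difference at ZT8. The test uses the same ZT8 libraries as the comparison above. Arntl was 4.15 at ZT8 against a mean of 0.15 at the other times (departure 4.01 ± 0.35, adjusted p = 3.18e-08). Dbp was -5.73 against -0.94 (departure -4.79 ± 0.34, adjusted p = 3.77e-10). Chka, the enzyme for the first step from choline to phosphatidylcholine, was 3.75 against 1.15 (departure 2.60 ± 0.24, adjusted p = 8.09e-08). For these genes the knockout stayed nearly level and the wild type moved. Dbp in the wild type climbed from 0.813 ± 0.323 CPM (ZT0) up to 249.9 ± 74.9 CPM by ZT8 (mean ± SD, n = 3) and was back at 5.98 ± 1.98 CPM at ZT16, while group means in the knockout stayed between 3.59 and 7.70 CPM. Arntl in the wild type was 33.8 ± 0.998 CPM at ZT0, 0.997 ± 0.234 CPM at ZT8 and 38.9 ± 2.89 CPM at ZT20. In the knockout it was 16.7 CPM at ZT0 and 18.9 CPM at ZT20, below the wild type. At ZT12 it was above, with 19.7 CPM against 3.68 CPM. The means of Arntl and Dbp at the other times thus averaged differences of both signs.

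Genes of metabolism were among the departures too. Chka (chr19:3851773-3894369) had 18, 14.8 and 17.9 CPM in the wild types at ZT8 and 227, 224 and 230.1 CPM in the knockouts (3.75 ± 0.24, adjusted p = 6.97e-12). Its wild-type mean ran from 16.9 ± 1.82 CPM at ZT8 to 218 ± 5.41 CPM at ZT20, and the knockout had 247 ± 34.9 CPM at ZT20. The genotypes were therefore far apart at ZT8 and close at ZT20. Ppp1r3b (chr8:36438795-36451178), whose product brings protein phosphatase 1 to glycogen, had 92.7, 86.7 and 125 CPM in the wild types and 638, 614 and 483 CPM in the knockouts (2.51 ± 0.26, adjusted p = 1.07e-07). Its mean difference at the other 5 times was -0.02 (departure 2.53 ± 0.28, adjusted p = 2.64e-06). At ZT12 the order was turned, with 568 ± 150.03 CPM in the wild type and 395 ± 71.9 CPM in the knockout. Agpat2, an acyltransferase of glycerolipid synthesis, was 1.21 at ZT8 against 0.17 (departure 1.04 ± 0.17, adjusted p = 0.000498). Tef (-1.61 against 0.04) and Usp2 (-2.85 against -0.31) departed downward (adjusted p = 7.46e-06 and 0.000566). Their means at the other times averaged differences of both signs. Tef had 37.8 CPM in the wild type and 121 CPM in the knockout at ZT0, and 302 and 150 CPM at ZT12. Usp2 had 3.59 and 16.2 CPM at ZT0, and 91 and 12.6 CPM at ZT12.

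Left out 1 at a time, the ZT8 libraries ended many of these departures. Departures numbered 51 without knockout replicate 3, 53 without wild-type replicate 1 and 50 without wild-type replicate 2, and 37 of the 96 held whichever ZT8 library was left out, among them those of Arntl, Dbp, Chka, Ppp1r3b, Agpat2, Tef, Usp2, Per3, Nr1d2, Insig2, Dhrs9 and Cry1.

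**Figure D3:**
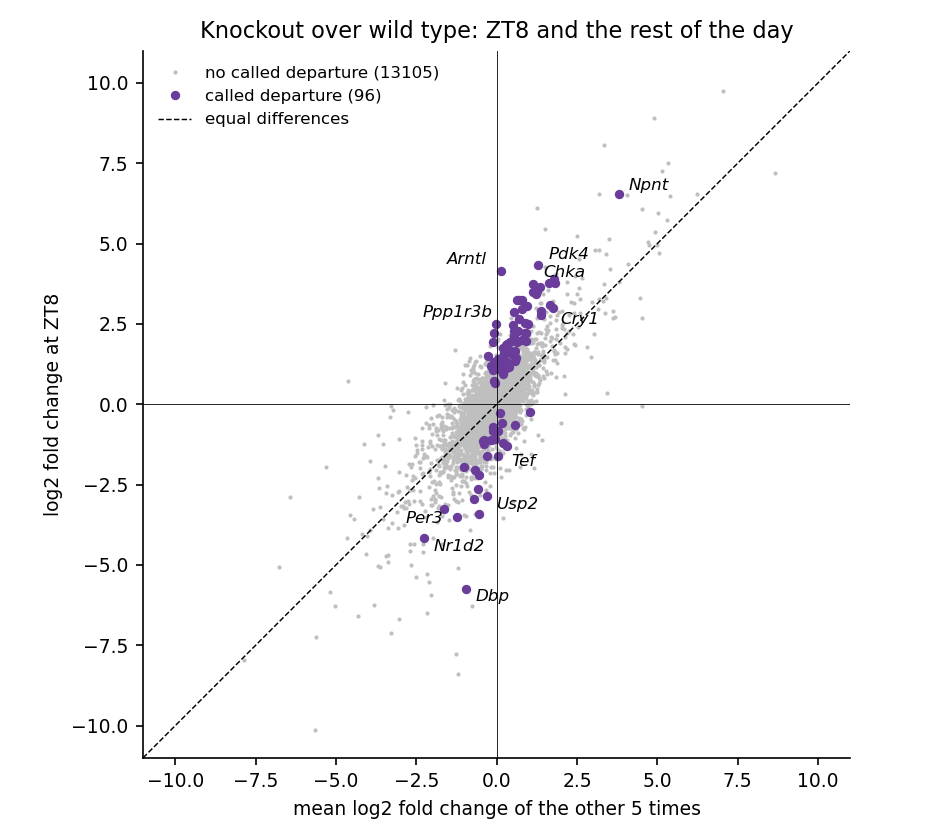
Each point is 1 tested gene, with the mean log2 fold change of the other 5 times on the x axis and that at ZT8 on the y axis. The 96 called departures are purple and the dashed line marks equal differences; Arntl (4.15 against 0.15) and Ppp1r3b (2.51 against -0.02) lie straight above the origin and Tef (-1.61 against 0.04) straight below it. For Arntl, Ppp1r3b and Tef, the mean near 0 averaged differences of both signs.

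**Figure D4:**
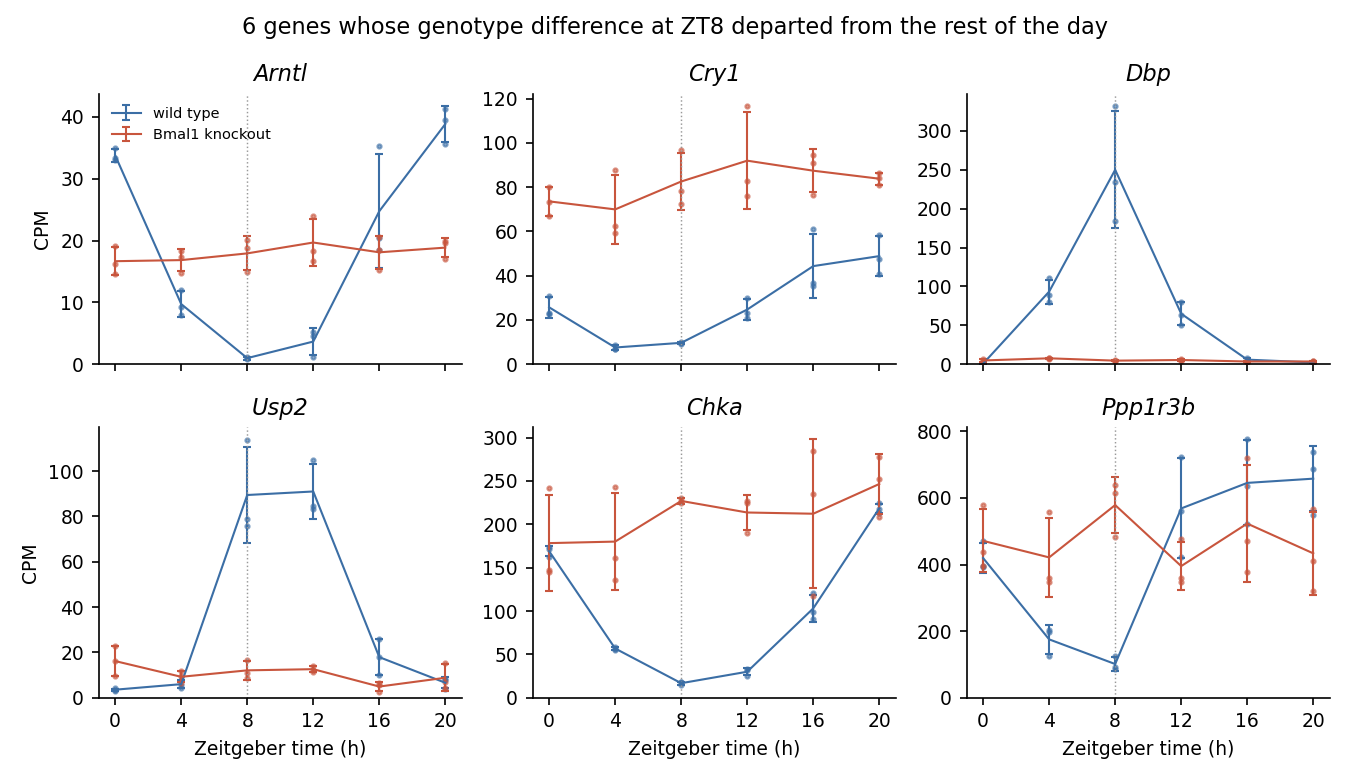
CPM of 6 genes over the 6 Zeitgeber times, with lines through the means, bars of 1 SD (n = 3) and points for single livers, wild type in blue and knockout in red, and a dotted line at ZT8. Wild-type Arntl, Cry1, Chka and Ppp1r3b are near their lowest at ZT8 and Dbp and Usp2 near their highest, while the knockout lines stay comparatively level.

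Few genes were called for a change in their genotype difference between ZT8 and a neighbouring time, and these tests too share the ZT8 libraries. A gene without a call is not shown to have the same difference at both times. Between ZT8 and ZT4, 15 genes were called (0.114%), 11 upward at ZT8 and 4 downward. They included Arntl (3.35 ± 0.42, adjusted p = 8.5e-05), Chka (2.11 ± 0.30, adjusted p = 0.000742) and Npas2 (4.03 ± 0.74, adjusted p = 0.0147) upward. Usp2 (-3.51 ± 0.54, adjusted p = 0.0017), Dbp (-2.13 ± 0.40, adjusted p = 0.0147) and Tef (-1.37 ± 0.25, adjusted p = 0.0147) went downward. Usp2 in the wild type was 6.03 ± 1.81 CPM at ZT4 and 89.5 ± 21.2 CPM at ZT8, against 9.28 ± 2.44 and 12.1 ± 4.17 CPM in the knockout. Between ZT8 and ZT12, 1 gene was called (0.00758%), Ppp1r3b at 3.06 ± 0.36 (adjusted p = 4.52e-05). The ZT4 count was 9 without knockout replicate 1, 5 without wild-type replicate 1 and 7 without wild-type replicate 2, and the ZT12 count was 4 without wild-type replicate 3. With the ZT16 and ZT20 libraries left out they were 88 and 4.

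Glycogen genes changed in opposite directions. Of 21 genes for glucose and glycogen, 6 rose and 5 fell, with a median of -0.21. Ppp1r3b rose as above, and Ppp1r3c, which also brings the phosphatase to glycogen, had 47.1, 40 and 31.2 CPM in the wild types and 278, 209 and 239 CPM in the knockouts (2.60 ± 0.40, adjusted p = 4.14e-05). Gys2, the liver glycogen synthase, had 312, 403 and 383 CPM in the wild types and 96.4, 113 and 77 CPM in the knockouts (-1.95 ± 0.20, adjusted p = 8.07e-08). Ppp1r3b and Ppp1r3c were thus higher and the synthase lower, with no overlap between groups. Ppp1r3g, a further phosphatase-targeting gene, fell (-3.52 ± 1.02, adjusted p = 0.0265), a call that ended with some libraries left out. Slc2a2, which encodes the glucose transporter GLUT2, had 324, 352 and 309 CPM in the wild types and 99.8, 86.5 and 127 CPM in the knockouts (-1.67 ± 0.28, adjusted p = 0.000118). G6pc, the last enzyme of glucose release, had 26, 50.9 and 110.1 CPM in the wild types and 570.2, 342 and 395 CPM in the knockouts (2.85 ± 0.59, adjusted p = 0.00165). Gbe1, the glycogen branching enzyme, fell slightly (-0.61 ± 0.14, adjusted p = 0.00634). The gluconeogenic genes Pck1 (-0.77 ± 0.57, adjusted p = 0.512) and Fbp1 (-0.43 ± 0.18, adjusted p = 0.175) were not called. The count of higher genes was 3 without wild-type replicate 2 and that of lower genes 3 without wild-type replicate 3. Calls that a single library ended included those of Gckr (0.0772 without wild-type replicate 2), Pfkfb3 (0.0959 without wild-type replicate 3), and Pygl and Ppp1r3g (adjusted p up to 0.15 without knockout replicate 3 and 0.155 without knockout replicate 3).

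Lipid synthesis genes changed in both directions. Of 23 genes for fatty acid and triglyceride synthesis, 3 rose and 4 fell, with a median of -0.63. Insig2, which holds the SREBP proteins in the endoplasmic reticulum, had 85.8, 78.8 and 67.8 CPM in the wild types and 560.4, 442 and 600.3 CPM in the knockouts (2.79 ± 0.25, adjusted p = 6.06e-09). Agpat2 had 114, 136 and 139 CPM in the wild types and 327, 272 and 294 CPM in the knockouts (1.21 ± 0.15, adjusted p = 2.2e-06). Both lay well above the wild type in every knockout. Elovl3, a fatty acid elongase that is also male-biased, had 6.11, 58.1 and 44 CPM in the wild types and 1566, 1238 and 337 CPM in the knockouts (5.45 ± 1.20, adjusted p = 0.00332), with its lowest value of each genotype in the female. Without the sex covariate it was not called (adjusted p = 0.199). Lpin2, a phosphatidate phosphatase, had 472, 452 and 515 CPM in the wild types and 128, 196 and 140.04 CPM in the knockouts (-1.63 ± 0.34, adjusted p = 0.00201). The other lower calls ended with a library: Lpin1 (0.104 without knockout replicate 1, 0.134 without knockout replicate 3 and 0.264 without wild-type replicate 3), Dgat2 (0.0556 without knockout replicate 1 and 0.0742 without knockout replicate 3) and Me1 (0.134 without knockout replicate 1, 0.0788 without wild-type replicate 2, 0.0552 without knockout replicate 2 and 0.0562 without wild-type replicate 3), so that the lower count was 1 without knockout replicate 1. The synthases Fasn (-0.93 ± 0.72, adjusted p = 0.536) and Acaca (-0.63 ± 0.32, adjusted p = 0.281) were not called.

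No gene of cholesterol synthesis passed the test at ZT8, and the median of their values was -0.71. Of 24 SREBP2-driven genes edgeR called 0, with 6 at an unadjusted p under 0.05, and DESeq2 called 2 lower. All 24 had a negative value, from -1.43 to -0.01. For 12 of them the groups did not overlap, against 31.8% of all genes. Summed over the list, they held 3895 to 5399 CPM in the wild types and 1179 to 3312 CPM in the knockouts. The lowest of these sums belonged to knockout replicate 2, and the groups did not overlap. Stard4, a sterol carrier, had 215, 196 and 206 CPM in the wild types and 104, 28.3 and 108 CPM in the knockouts (-1.36 ± 0.44, adjusted p = 0.0514). It too was lowest in knockout replicate 2.

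Genes of fat use showed 1 strong rise and small falls. Of 24 genes for fatty acid oxidation and PPARα targets, 1 rose and 2 fell, with a median of -0.11, beside 8.56% called over all genes. Pdk4, the kinase that shuts pyruvate out of oxidation, had 2.3, 1.73 and 0.94 CPM in the wild types and 44.2, 7.74 and 49.3 CPM in the knockouts (4.33 ± 0.58, adjusted p = 6.77e-06). The peroxisomal thiolase gene Acaa1a (-0.96 ± 0.18, adjusted p = 0.000538) fell in all 3 pairs of matched mice. Cpt1a, the gate of mitochondrial oxidation, was not called (-0.69 ± 0.24, adjusted p = 0.0722).

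Lipoprotein lipase rose to a high level. Of 22 genes for lipoproteins and lipid uptake, 3 rose and 1 fell, with a median of 0.17. Lpl (chr8:71404390-71431347), which adult hepatocytes normally express little, had 10.3, 25.1 and 38.7 CPM in the wild types and 743, 599 and 719.6 CPM in the knockouts (4.96 ± 0.53, adjusted p = 1.41e-07). Its difference was similar over the day, at 4.74 for the mean of the other times (departure 0.22 ± 0.49, adjusted p = 0.999). Lipg, the endothelial lipase, had 14.9, 18.3 and 10.7 CPM in the wild types and 2.27, 2.24 and 4.29 CPM in the knockouts (-2.38 ± 0.52, adjusted p = 0.00299). The rises of Lipc (0.74 ± 0.20) and Plin5 (1.23 ± 0.31) did not outlast the loss of a library: Lipc had an adjusted p of 0.0784 without knockout replicate 1, 0.115 without wild-type replicate 2, 0.0699 without knockout replicate 3 and 0.074 without wild-type replicate 3, and Plin5 of 0.0744 without wild-type replicate 1 and 0.0668 without wild-type replicate 2. The count of higher genes was thus 1 without wild-type replicate 2. The apolipoprotein genes were not called, such as Apoa1 (0.01 ± 0.33, adjusted p = 0.994) and Apob (0.12 ± 0.22, adjusted p = 0.85).

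Drug-metabolising genes that depend on PAR bZIP factors included 2 strong falls. Of 8 such genes, 2 fell and 1 rose, with a median of -0.79. Cyp2a5, a coumarin hydroxylase, had 3309.5, 3336 and 2703 CPM in the wild types and 199, 296 and 502 CPM in the knockouts (-3.24 ± 0.36, adjusted p = 2.93e-07). Its near-identical paralogue Cyp2a4 could share reads with it, so the split between them is uncertain. Por, the reductase that feeds electrons to the P450 enzymes, had 906, 544 and 689 CPM in the wild types and 134, 183 and 195 CPM in the knockouts (-2.03 ± 0.29, adjusted p = 1.7e-05). Both groups were fully separate for these genes. Cyp2c37, the 1 that rose, lost its call without any 1 of 5 libraries (adjusted p up to 0.167, without wild-type replicate 2). Alas1, the rate-limiting enzyme of heme synthesis, was not called (-0.91 ± 0.61, adjusted p = 0.455).

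Among further enzymes of xenobiotic metabolism, calls went both ways. Of 29 P450 and drug oxidation genes, 3 rose and 2 fell (median -0.06), the falls being Cyp2a5 and Por again. Cyp2c29, a member of a family of close paralogues whose reads may be shared, had 1701, 1793 and 2285 CPM in the wild types and 4148, 4207 and 6314 CPM in the knockouts (1.37 ± 0.26, adjusted p = 0.000714). The count of rises was 1 without knockout replicate 3, wild-type replicate 2 or wild-type replicate 3. Of 27 conjugation enzymes, 3 rose and 4 fell. Sult1e1, the estrogen sulfotransferase, had 2 reads over the wild types and 28.9, 18 and 103 CPM in the knockouts, highest in the female. The ratio of its summed reads was 961.9 (95% interval 265.9 to 7949, counting error only; adjusted p = 5.55e-05). Nat8 had 7.54, 38.9 and 17.4 CPM in the wild types and 0.649, 0.232 and 0.23 CPM in the knockouts (-5.84 ± 1.12, adjusted p = 0.000704). The glutathione transferases Gstt2 (-2.37 ± 0.32, adjusted p = 6.93e-06) and Gsta4 (-1.54 ± 0.36, adjusted p = 0.00502) fell, whereas Gstm2 (1.86 ± 0.47) and Gstm3 (1.79 ± 0.52) rose with calls that ended when some libraries were left out. Gstm2 had an adjusted p of 0.0693 without knockout replicate 1, 0.0517 without knockout replicate 3 and 0.0669 without wild-type replicate 3, and the count of rises was 1 without knockout replicate 1, knockout replicate 3 or wild-type replicate 3. Of 23 targets of the antioxidant factor NRF2, 5 fell and 1 rose, with members in common with the transferases. The lower count was 2 without knockout replicate 1 or knockout replicate 3 and 3 without wild-type replicate 1. Nqo1 (-0.37 ± 0.34, adjusted p = 0.614) and Gclc (0.61 ± 0.22, adjusted p = 0.0873), 2 of its defining targets, were not called. The summed level of the NRF2 list, in which abundant members weigh most, went the other way from most calls. It was 3954 to 4911 CPM in the wild types and 6060 to 6899 CPM in the knockouts, without overlap, while the list median was -0.08.

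In nitrogen and bile acid metabolism, single enzymes changed. Of 29 genes for amino acid breakdown and the urea cycle, 2 rose and 2 fell, beside 8.56% called over all genes. Gldc, of the glycine cleavage system, had 111, 131 and 105 CPM in the wild types and 294, 336 and 305 CPM in the knockouts (1.43 ± 0.16, adjusted p = 2.54e-07). Cbs, which makes cystathionine, rose too (0.95 ± 0.20, adjusted p = 0.00229). Asl lost its call without knockout replicate 3 (adjusted p = 0.051), and Sds without any 1 of 5 libraries (up to 0.177, without knockout replicate 3). Of 18 genes for bile acids, Hsd3b7 alone was called, with 488, 519 and 449 CPM in the wild types and 1101, 975 and 953 CPM in the knockouts (1.05 ± 0.16, adjusted p = 3.36e-05). Of 15 genes for NAD and sirtuins, Nampt fell as above and Kynu rose (0.77 ± 0.19, adjusted p = 0.00965, but 0.0981 without knockout replicate 3 and 0.0544 without wild-type replicate 3). Of 19 genes for heme and iron, 2 rose and 1 fell, and Uros alone held its call without each library (0.61 ± 0.14, adjusted p = 0.00379).

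Chaperone genes were modestly higher, resting on single libraries. Of 18 heat shock and cold-inducible genes, 5 rose and 1 fell, with a median of 0.29. Hsp90aa1 had 58.7, 88.6 and 94.8 CPM in the wild types and 178, 161 and 164 CPM in the knockouts (1.06 ± 0.25, adjusted p = 0.00622). Hsph1 had 23.8, 32.7 and 33.8 CPM in the wild types and 65.1, 76.5 and 63.5 CPM in the knockouts (1.18 ± 0.29, adjusted p = 0.00882). For both, wild-type replicate 1 was lowest, and the adjusted p without it was 0.064 and 0.0738. The co-chaperone Stip1 (0.66 ± 0.15) had 0.0502 without knockout replicate 1. Hspa1a and Hspa1b, near-identical copies whose reads may be shared, had up to 3.79 and 27.2 CPM in knockout replicate 2 and lost their calls without it (adjusted p = 0.106 and 0.152). The rises numbered 2 without wild-type replicate 1, 3 without knockout replicate 2 or wild-type replicate 3, and 8 with the ZT16 and ZT20 libraries left out. Cirbp (-0.10 ± 0.23, adjusted p = 0.878) and Rbm3 (0.24 ± 0.21, adjusted p = 0.596), which respond to cold, were not called.

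Other stress and signalling groups had few calls, to be read beside 8.56% called over all genes. Of 20 genes of the unfolded protein response and ATF4, 3 fell and 1 rose. The pseudokinase Trib3 had 28.1, 13.6 and 11.4 CPM in the wild types and 0.893, 2.55 and 1.23 CPM in the knockouts (-3.42 ± 0.62, adjusted p = 0.000398). Atf5, a transcription factor of the same response, had 199, 99.1 and 103 CPM in the wild types and 448, 406 and 449 CPM in the knockouts (1.74 ± 0.29, adjusted p = 0.000148), so members of this group moved in opposite directions. The falls of Herpud1 and Chac1 ended with single libraries (adjusted p up to 0.158 without knockout replicate 1 and 0.275 without wild-type replicate 3), which left 1 fall without any 1 of 5 libraries. Of 17 glucocorticoid-responsive genes, 3 rose and 1 fell, among them Tsc22d3 with 59.8, 59 and 73.8 CPM in the wild types and 185, 177 and 142 CPM in the knockouts (1.38 ± 0.32, adjusted p = 0.00482). Its neighbour in the list, Fkbp5, went the other way without passing the test (-1.59 ± 0.52, adjusted p = 0.0569). The summed level of this list was also lower in the knockouts, at 3011 to 3892 CPM against 4356 to 6033 CPM in the wild types. Of 16 immediate early genes, Junb, Klf10 and Klf4 fell, and none did without knockout replicate 3 (adjusted p = 0.0819, 0.055 and 0.26). Of 18 insulin and IGF genes, Irs1 rose (1.08 ± 0.26, adjusted p = 0.00641, but 0.0521 without wild-type replicate 3).

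In the cell cycle group of 19 genes, 1 rose and 3 fell. Cdkn1a, which encodes the cyclin-dependent kinase inhibitor p21, had 0.635, 0.472 and 0.235 CPM in the wild types and 29.4, 51.9 and 44.4 CPM in the knockouts (6.53 ± 0.89, adjusted p = 8.05e-06). Wee1 and the growth-arrest gene Gadd45a fell (-1.85 ± 0.43 for the latter, adjusted p = 0.00515), and Ccne1 lost its call without knockout replicate 1 (adjusted p = 0.0684). Proliferation genes were not called, such as Mki67 (-0.36 ± 0.56, adjusted p = 0.804) and Pcna (0.01 ± 0.24, adjusted p = 0.997). Of 22 acute phase genes, 3 fell and 1 rose. Cxcl1, a neutrophil chemokine, had 5.63, 10.7 and 3.05 CPM in the wild types and 0.325, 2.09 and 0.536 CPM in the knockouts (-2.72 ± 0.53, adjusted p = 0.000979), and the inter-alpha-inhibitor chain Itih3 rose (1.08 ± 0.23, adjusted p = 0.00264). The falls of Orm3 (0.0647 without knockout replicate 3) and Saa4 (0.073 without knockout replicate 1) each rested on 1 library. The summed level of the acute phase list, in which abundant members weigh most, went the other way from most calls. It was 27510 to 31880 CPM in the wild types and 38130 to 42590 CPM in the knockouts, without overlap, while the list median was 0.02.

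Female-biased genes differed mainly between the single females of each genotype. Of 17 female-biased genes, 4 fell and 1 rose. Cux2, a female-specific repressor, had 129, 0.315 and 0.626 CPM in the wild types and 0, 0.0774 and 0.153 CPM in the knockouts, so that the wild-type female (replicate 1) alone had a level. The knockout female (replicate 3) did not share it. Without the knockout female the adjusted p of Cux2 was 0.322, and no member was called lower. Hao2 had 1.06, 0.0774 and 46.8 CPM in the knockouts, highest in the female, and lost its call without either female (adjusted p = 0.432 and 0.154). With 1 female per genotype, a difference between females cannot be told apart from a difference between these 2 animals. Of 21 male-biased genes, Elovl3 alone was called, and Serpina1e (-2.89 ± 0.98, adjusted p = 0.0656) and Hsd3b5 (2.25 ± 1.27, adjusted p = 0.34) were not. Serpina1e passed under some other settings, with an adjusted p of 0.00439 without the wild-type ZT16 library against its sex label and 0.0212 with DESeq2. With a ZT8 library left out it was not called (adjusted p up to 0.231). Elovl3 and Serpina1e differed between the males too. Elovl3 had 739 and 562 reads in wild-type males and 19287 and 15996 in knockout males. Serpina1e had 90749 and 78099 against 16841 and 19344.

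**Figure D5:**
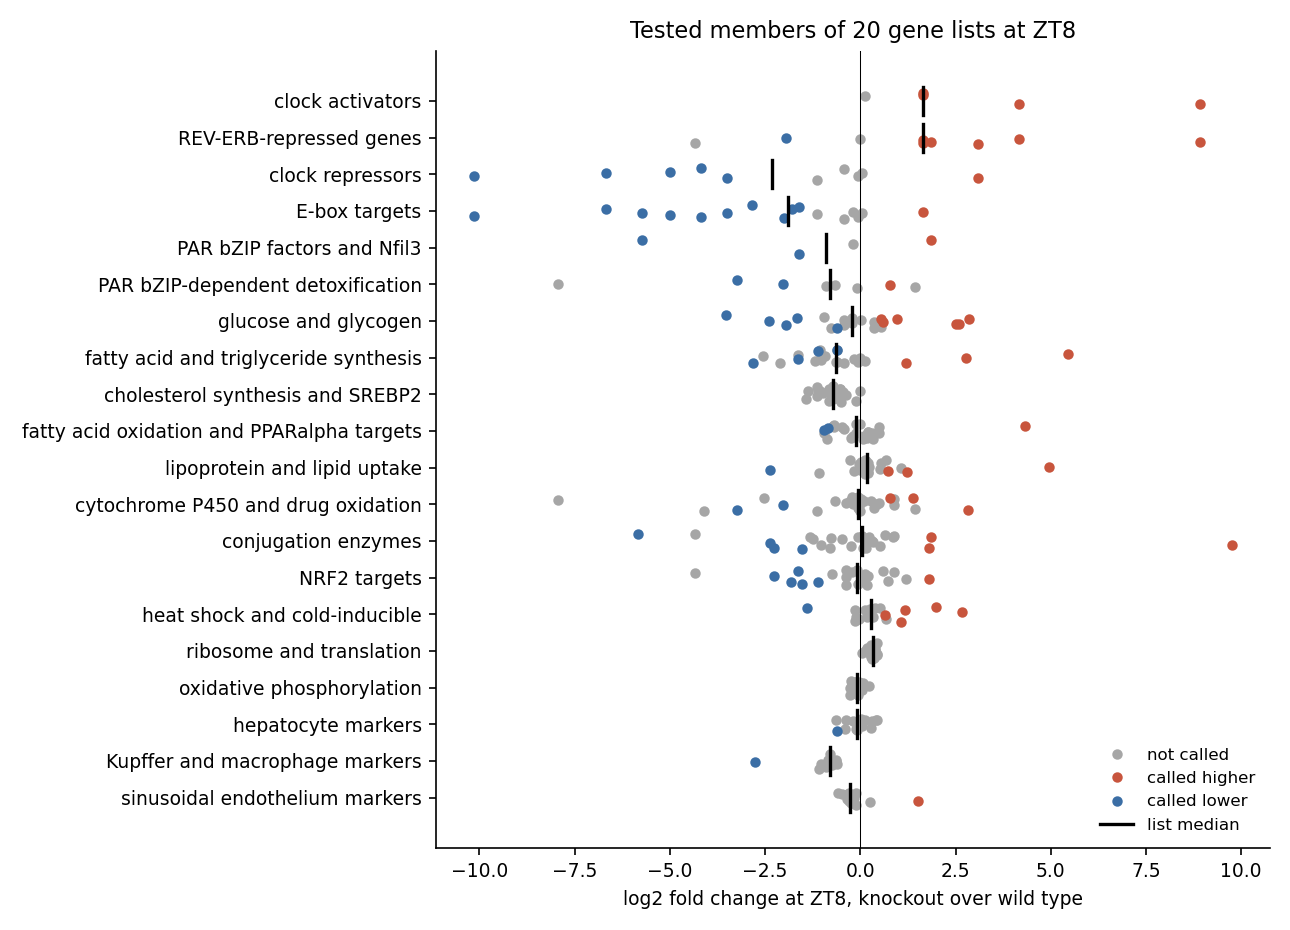
Each point is a tested member of a gene list, with its log2 fold change at ZT8 (knockout over wild type) on the x axis and the lists as rows; red and blue mark genes called higher and lower, grey those not called, and black bars the list medians. The medians of clock activators and REV-ERB-repressed genes lie right of 0 (1.63 each) and those of clock repressors (-2.32) and E-box targets (-1.91) left of it, with members on both sides in 3 of these 4 lists. The tested cholesterol synthesis genes all lie left of 0 (median -0.71) without a call.

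Markers of liver cell types were checked against the tissue label. Hepatocyte markers, 17 tested, summed to 56300 to 59160 CPM in the wild types and 53560 to 56590 CPM in the knockouts, with 1 call, Cebpa, lower (-0.60 ± 0.18; adjusted p = 0.0305, and 0.213 without wild-type replicate 1). Kupffer cell and macrophage markers, 13 tested, summed to 220.4 to 362 CPM in the wild types and 136 to 218 CPM in the knockouts, groups that lie next to each other without overlap. All 13 had a negative value, with a median of -0.80 and 9 at an unadjusted p under 0.05, and Marco alone was called (-2.78 ± 0.85; adjusted p = 0.0379, and 0.193 without knockout replicate 3). In whole liver, fewer cells of a type and less RNA per cell cannot be told apart. Sinusoidal endothelial markers, 14 tested, summed to 286 to 382 CPM in the wild types and 268 to 308 CPM in the knockouts, with a median of -0.27. Lyve1 alone was called, with the highest value of the list (1.52 ± 0.48, adjusted p = 0.0471). It lost its call without any 1 of the 6 ZT8 libraries (adjusted p up to 0.217, without knockout replicate 3). Stellate cell markers summed to 122 to 304 CPM in the wild types and 156 to 249 CPM in the knockouts with 0 of 13 called by edgeR or DESeq2 and 0 at an unadjusted p under 0.05. Of 6 cholangiocyte markers, Sox9, with 2.06, 4.8 and 1.33 CPM in the wild types and 13.2, 14.9 and 14.2 CPM in the knockouts (2.44 ± 0.39, adjusted p = 8.84e-05), and Pkhd1 (0.89 ± 0.22, adjusted p = 0.00878, but 0.0849 without wild-type replicate 1) rose, whereas Krt19 (0.77 ± 0.60, adjusted p = 0.538) and Epcam (-0.10 ± 0.35, adjusted p = 0.935) did not pass. Markers of lymphocytes, neutrophils, adipocytes, red cells and pancreas gave 0 calls with edgeR and with DESeq2, with 2, 0, 0, 0 and 1 at an unadjusted p under 0.05, and the pancreatic genes Prss2, Cpa1, Ctrb1, Pnlip and Amy2b were at 0 in all 6 libraries. The part of these cell types in the differences above was not tested.

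Ribosomal genes had small positive values without a call. Of 25 ribosome and translation genes edgeR called 0, with 9 at an unadjusted p under 0.05, and DESeq2 called 1 higher. Their median was 0.33, and 21 of the 25 had groups that did not overlap, against 31.8% of all genes. Eef1a1, an elongation factor, had 4143, 4159 and 4125 CPM in the wild types and 5521, 5039 and 5184 CPM in the knockouts (0.34 ± 0.13, adjusted p = 0.116). Among 27 oxidative phosphorylation genes edgeR called 0, as did DESeq2, with 0 at an unadjusted p under 0.05 and a median of -0.08.

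The largest fold changes outside these groups were rises from near absence in wild-type liver at ZT8. Loxl4, a lysyl oxidase-like enzyme, had 0.714, 0.708 and 0.392 CPM in the wild types and 65.9, 38.1 and 63.3 CPM in the knockouts (6.51 ± 0.57, adjusted p = 4.54e-09). Tox2, a nuclear protein with an HMG box, had 0.0793, 0.787 and 0.157 CPM in the wild types and 35.6, 22.9 and 35.9 CPM in the knockouts (6.54 ± 0.61, adjusted p = 1.3e-08). Ntrk2, the neurotrophin receptor TrkB, had 2.14, 0.472 and 0.783 CPM in the wild types and 58.9, 30.7 and 88.3 CPM in the knockouts (5.72 ± 0.68, adjusted p = 8.55e-07). For these genes the lowest knockout at ZT8 stood far above the highest wild type of that time. The phosphate transporter gene Slc34a2 (8.06 ± 1.01, adjusted p = 2.27e-06) and the matrix protein gene Npnt (6.55 ± 0.52, adjusted p = 6.97e-10) behaved likewise. Some of these genes had more reads in the wild type at other times. At ZT0 the wild-type and knockout means were 14.9 and 53.3 CPM for Loxl4 and 5.47 and 41 CPM for Slc34a2. For Npnt they were 1.40 and 8.92 CPM. Tox2 had no wild-type mean above 0.341 CPM, its ZT8 value, and Ntrk2 none above 2.99 CPM (ZT12). Moxd1 had 114, 40.5 and 0 CPM in the knockouts, at 0 in the female, so its groups overlap (7.19 ± 1.06, adjusted p = 3.36e-05, but 0.188 with DESeq2).

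Among the lowest fold changes, Rgs16, a regulator of G protein signalling, had 53.2, 23 and 63.1 CPM in the wild types and 0.0812, 0.387 and 0.153 CPM in the knockouts (-7.78 ± 1.73, adjusted p = 0.00352). Mme, which encodes the peptidase neprilysin, had 35.9, 25 and 19.3 CPM in the wild types and 2.44, 0.697 and 1.23 CPM in the knockouts (-4.16 ± 0.49, adjusted p = 6.46e-07). Enho, the gene of the secreted peptide adropin, had 26.3, 24.1 and 19 CPM in the wild types and 1.95, 2.01 and 1.07 CPM in the knockouts (-3.77 ± 0.37, adjusted p = 2.85e-08). The groups were fully separate for all 3. The falls of Mme and Enho were present at other times as well, with means of -4.67 and -2.88 over the other 5, whereas Rgs16 was -7.78 at ZT8 against -1.26, a departure that was not called (adjusted p = 0.205).

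By absolute level, the largest falls among named genes were in abundant transcripts of liver metabolism. Slc38a3, a glutamine transporter, had 3376, 2692 and 2379 CPM in the wild types and 1086, 900.2 and 969 CPM in the knockouts (-1.50 ± 0.23, adjusted p = 3.36e-05). Upp2, a uridine phosphorylase, had 1397, 1104 and 1271 CPM in the wild types and 135, 107 and 79.7 CPM in the knockouts (-3.55 ± 0.57, adjusted p = 9.08e-05). Uox, the urate oxidase, had 3001, 3193 and 3386 CPM in the wild types and 1244, 1314 and 1229 CPM in the knockouts (-1.33 ± 0.29, adjusted p = 0.00245). The groups did not overlap for any of them. Sepp1, which encodes selenoprotein P, fell from a mean of 6486 ± 476 to 4187 ± 504 CPM (mean ± SD, n = 3; -0.63 ± 0.15, adjusted p = 0.00505). Gpcpd1, which breaks down glycerophosphocholine and so acts on the same choline pathway as Chka, had 284, 422 and 485 CPM in the wild types and 89.4, 51.1 and 53.7 CPM in the knockouts (-2.63 ± 0.44, adjusted p = 0.000129). Of the largest rises in level, those of Cyp2c29, Itih3 and Elovl3 held without each library. The rises of Scp2 (adjusted p = 0.234 without knockout replicate 3), Plg (0.165 without wild-type replicate 2) and C9 (0.131 without knockout replicate 3) did not.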

How the data were processed

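Liver mRNA was sequenced from 36 mice, per the labels with a stranded kit, 13 PCR cycles and 6 barcoded samples per pool. The authors deposited whole-number counts of sense-strand reads per gene with mm9 coordinates. The submitters' processing notes list CASAVA, STAR 2.4.0f1 and mm9; the counting program, annotation and filters are not given in the sources used here. Totals per library lie within 12657858 and 12839653. Samples were grouped by labelled genotype and time. Genes passed filterByExpr (minimum count 10, minimum total 15), and 8453 of 21654 were not tested. edgeR 4.0.16 in R 4.3.3 fitted all 36 libraries with TMM scaling, 1 mean per group and labelled sex, and every adjusted p of a gene in the text is its Benjamini-Hochberg value, called under 0.05, unless DESeq2 is named. Departures are contrasts within that fit. Replicate numbers follow accession order and pair no mice. The script was tested on simulated data. RefSeq promoter windows are on GRCm38.p6 and were matched by symbol or synonym.

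Named genes are the clock lists, the 12 highest and 12 lowest fold changes whose mean log2 CPM is 1 or more, up to 4 genes per list by p, the 6 highest and 6 lowest departures and the 6 largest rises and falls in CPM, with predicted genes left out of the rankings. List members may be named whatever their test. A few list members, counted with their lists, are not reported here by name. The members and lists were chosen with earlier results of these data known. Alternatives were DESeq2 size factors, no filter, a minimum mean of 1 CPM, no sex covariate, sex and age, DESeq2 1.42.0, no ZT16 and ZT20 libraries, males alone, ZT8 libraries alone, calls restricted to an absolute log2 fold change of 1 or more, and each ZT8 library, or the library against its sex label, left out. List members not analysed here were Hmgcs1, Msmo1, Sult2a8, Tfr2, Slp, Alb, Tf, Adgre1, Ly6g, Ahsp, Prss1 and Amy2a5.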

Additional observations from a re-analysis of the deposited data

Results flagged for a closer look

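For 26 of the named genes, the difference between genotypes at ZT8 departed from the mean difference of the other 5 times in edgeR's test, on the log2 scale and adjusted over all 13201 genes. In the clock, the departure was 4.006 for Arntl, 1.417 for Clock, 1.411 for Cry1 and 1.54 for Nfil3 upward. It was -4.79 for Dbp, -1.652 for Tef, -2.543 for Usp2, -2.273 for Per3 and -1.91 for Nr1d2 downward. In lipid, choline and glucose metabolism it was 2.6 for Chka, 2.526 for Ppp1r3b, 1.403 for Insig2, 1.036 for Agpat2, 3.029 for Pdk4, -0.921 for Gys2 and -2.045 for Gpcpd1. For Gldc, Cyp2a5 and Por it was 0.836, -1.601 and -1.363. The chaperones Hsp90aa1, Hsph1 and Stip1 had 1.179, 1.355 and 0.714, each with a mean of the other 5 times near 0 (-0.12, -0.18 and -0.06). These means averaged differences of both signs. At ZT16 the wild-type and knockout means were 640 and 366 CPM for Hsp90aa1, 144 and 76.1 CPM for Hsph1 and 127 and 82.3 CPM for Stip1. At ZT0 they were 194 and 215, 77.5 and 103, and 86.5 and 93.4 CPM. Trib3, Npnt, Srms and Dhrs9 had -2.859, 2.756, 2.601 and 2.55.

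These departures differed in how far they rested on single libraries or times. Those of Agpat2, Arntl, Chka, Cry1, Dbp, Dhrs9, Insig2, Nr1d2, Per3, Ppp1r3b, Tef and Usp2 were called whichever ZT8 library was left out. With the ZT16 and ZT20 libraries left out, those of Cry1, Gpcpd1, Hsp90aa1, Hsph1, Nfil3, Npnt, Stip1 and Trib3 were not called. With the males alone, those of Arntl, Chka, Dbp and Nfil3 were called. Without the sex covariate, those of Clock, Gys2, Npnt and Por were not called.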

How the results depend on the processing

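Genes higher in the knockout at ZT8 numbered 609, and 212 with the males alone, 343 at a minimum absolute log2 fold change of 1 and 1138 without the ZT16 and ZT20 libraries. Genes lower numbered 521, and 159, 338 and 1020 under those settings. Leaving out 1 library gave 384 to 638 higher and 272 to 585 lower genes. Departures from the other 5 times numbered 96, and 186 with DESeq2, 7 with the males alone and 50 to 102 with 1 library left out. Departures from ZT4 numbered 15, and 48 with DESeq2, 0 with the males alone, 24 with no filter, 88 without the ZT16 and ZT20 libraries and 5 to 21 with 1 library left out. Departures from ZT12 numbered 1, and 13, 0, 4 and 4 under those settings and 1 to 4 with 1 library left out. In edgeR's fit of the males alone, 333 and 422 genes had an unadjusted p under 0.05 in these 2 tests. The males alone leave fewer animals in the fit; for the other settings the cause was not tested. With the libraries of ZT8 alone, 1539 genes were called with sex, 1182 with no covariate and 1390 with mice matched in sex and age as a block. Those blocks pair mice by labelled sex and age, since the replicate numbers follow accession order and pair no mice. The share of higher genes among those called lay between 50.2% and 58.6% over all settings, against 53.9%. With the males alone, 40 of the 181 named genes lost their call, among them Acaa1a, Clock, Sepp1, Sox9, Uox, Uros and Wee1 (adjusted p from 0.0611 for Sox9 to 0.218 for Uros). No called gene among the 181 named changed direction under any setting. Another scaling (DESeq2 size factors in edgeR) kept 180 of the 181 on their side of the threshold and moved the median of all genes by -0.011. Depth was nearly equal between libraries, and genes under the count filter were not tested.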

Other observations

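Genes whose knockout mean at ZT8 lay within the range of the 6 wild-type group means were set beside the wild-type time with the nearest mean, on the scale of log2(CPM + 0.1). Of the 169 such genes called higher in the knockout, the nearest wild-type time was ZT0 for 73, ZT4 for 14, ZT12 for 12, ZT16 for 32 and ZT20 for 38. Of the 170 such genes called lower, it was ZT0 for 63, ZT4 for 21, ZT8 for 1, ZT12 for 6, ZT16 for 39 and ZT20 for 40. For Arntl and Clock, the knockout level at ZT8, 17.9 ± 2.74 and 57.7 ± 0.405 CPM (mean ± SD, n = 3), was nearest to wild-type ZT16 and ZT0. These counts describe group means, and they were not tested. The genes were called for a difference from wild-type ZT8, so the rarity of ZT8 as the nearest time follows from the calls.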
